A study of Rattus norvegicus with 18 samples.

Results

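The expression of 10 genes of the Hippo pathway was examined in rat fibroblasts with and without MYC and after silencing of the aryl hydrocarbon receptor (AHR). The genes were chosen by symbol, with earlier results of these data known. They were the co-activators Yap1 and Wwtr1, the DNA-binding factors Tead1 and Tead2, the kinase gene Lats2, and the target genes Ctgf, Cyr61, Ankrd1, Amotl2 and Axl. All 10 were present among the 13188 genes of the deposited table.

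RNA-seq was performed on 18 libraries, 3 for each of 6 groups, from HO15.19, a single line of Rat1 fibroblasts that lacks functional myc in every group (myc-/-). The groups were myc-/- cells, myc-/- cells stably expressing human MYC from a retroviral vector (myc-/- + MYC), myc-/- cells transfected with a control siRNA (myc-/- siCtrl), and MYC-expressing cells transfected with the control siRNA (myc-/- + MYC siCtrl) or with either of 2 siRNAs against AHR (siAHR-2 and siAHR-5). In the paper's account of the RNA-seq, the myc-/- cells without MYC expressed vector. Transfected cells received 40 nM siRNA and were collected after 48 h. The labels do not say whether the 3 libraries of a group came from separate cultures, so the p-values measure the spread between these libraries, which may be technical.

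The Hippo pathway is a kinase cascade that restrains YAP and TAZ, the products of Yap1 and Wwtr1. LATS1 and LATS2 phosphorylate both co-activators, which are then held in the cytoplasm or degraded. When the kinases are inactive, as in spread and mechanically loaded cells, YAP and TAZ enter the nucleus and bind TEAD factors, which carry them to DNA. Their best known targets encode the matrix-associated proteins CTGF and CYR61 (now CCN2 and CCN1) and the nuclear ankyrin protein ANKRD1, which serve as readouts of YAP and TAZ activity in fibroblasts. LATS2 and AMOTL2 are encoded by targets as well, and both restrain YAP and TAZ in return.

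The deposited values are log2 expression values normalized by the authors, with unknown depth. The libraries were on 2 scales, 1 for the myc-/- siCtrl and myc-/- + MYC groups (the 6-library set) and 1 for the remaining 4 groups (the 12-library set). No comparison of levels was made across the sets. In each set the transfection label changes together with MYC, so the effects of MYC and of transfection cannot be told apart. The transfection labels were taken as given. Were those of the groups without MYC exchanged, each set would be matched for transfection, and this was not tested. Rat Myc still gave signal and was lower in cells with MYC in both sets, and Ahr fell by 1.29 with siAHR-2 and by 1.39 with siAHR-5 on the log2 scale. Replicate 2 of the myc-/- group deviated most: it was the library farthest from its group mean for 56.7% of genes. Without it no call of the MYC effect among the 10 genes changed. Replicate 1 of the myc-/- + MYC group was farthest for 49.3% of genes. Without that library, 6 in place of 8 of the 10 genes passed in the 6-library set. Replicate 2 of siAHR-5 (47%) and replicate 1 of myc-/- siCtrl (45.6%) followed. In bulk RNA, fewer cells that express a gene and less RNA per cell cannot be told apart.

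Marker genes moved with MYC beside the 10 genes. All 7 fibroblast markers were in the table, with Col1a2 at or below 4.13 in every library and the other 6 at 11.34 or above. Of these 7, Col1a1, Pdgfrb and Thy1 fell in both sets and Col3a1 rose in the 6-library set. Vim (18.41 to 18.57 against 18.32 to 18.39) and S100a4 (15.89 to 16.00 against 15.76 to 15.79) were also higher there, without passing. In the 6-library set, 3 of the 7 were higher and 4 lower in every library with MYC. In the 12-library set, 0 were higher and 6 lower. Col1a1 lay at 17.52 to 17.61 with MYC against 19.28 to 19.31, and at 15.05 to 15.08 against 20.93 to 21.07 in the 12-library set. Pdgfrb lay at 12.51 to 12.66 against 14.29 to 14.35 and at 11.68 to 11.83 against 14.73 to 14.92, and Thy1 at 12.65 to 12.86 against 13.84 to 13.92 and at 11.34 to 11.44 against 13.55 to 13.64. The log2 of the summed level of the 7 was 19.49 to 19.62 against 20.09 to 20.10 in the 6-library set and 19.62 to 19.68 against 21.51 to 21.57 in the 12-library set. Among 4 epithelial markers in the table Krt8 rose in both sets, Krt19 was lower in the 6-library set (7.30 to 7.63 against 7.68 to 7.73) and at or below 2.46 in the 12-library set, and Epcam and Cdh1 lay at or below 4.31 throughout. Among 4 endothelial markers Tek rose in the 6-library set (7.18 to 7.39 against 5.63 to 5.65), where Cdh5 lay at 6.48 to 6.63 against 7.05 to 7.18, and 0 of the 4 passed in the 12-library set. Among 4 leukocyte markers Cd14 fell in both sets, Cd68 was higher in the 6-library set (7.33 to 7.55 against 7.004 to 7.24) without passing, and Ptprc and Itgam lay at or below 4.65. The part of these markers in the results was not tested.

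TEAD factors bind promoters and enhancers of YAP target genes. The promoters of 3 targets and of Yap1 itself are shown. Among the 10 genes, Ctgf and Cyr61 differed most between the sets, and Amotl2 and Yap1 carry a TEAD match too. RefSeq promoters of the rat build GRCr8, which span 250 bases before to 50 bases after the start site, were given for 6 of the 10 genes. They were searched on both strands for GGAATG (the core letters bound by TEAD), CACGTG (the E-box bound by MYC and MAX) and GCGTG (the core letters bound by AHR). None of the matches overlapped each other. The sequences below run in the direction of the gene, and capitals mark all matches.
Ctgf promoter, chr1:22624565-22624864, minus strand: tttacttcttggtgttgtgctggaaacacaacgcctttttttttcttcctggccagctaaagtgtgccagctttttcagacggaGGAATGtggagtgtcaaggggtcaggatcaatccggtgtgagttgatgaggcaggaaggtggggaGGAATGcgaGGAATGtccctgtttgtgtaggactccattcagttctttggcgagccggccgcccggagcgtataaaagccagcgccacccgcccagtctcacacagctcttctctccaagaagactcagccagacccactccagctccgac
Cyr61 promoter, chr2:237225640-237225939, minus strand: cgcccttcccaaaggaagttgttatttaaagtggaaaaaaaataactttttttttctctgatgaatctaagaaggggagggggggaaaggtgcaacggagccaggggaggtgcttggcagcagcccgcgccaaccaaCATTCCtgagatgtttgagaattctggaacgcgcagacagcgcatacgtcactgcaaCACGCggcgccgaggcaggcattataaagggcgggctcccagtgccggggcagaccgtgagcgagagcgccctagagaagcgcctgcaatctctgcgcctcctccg
Amotl2 promoter, chr8:112182376-112182675, plus strand: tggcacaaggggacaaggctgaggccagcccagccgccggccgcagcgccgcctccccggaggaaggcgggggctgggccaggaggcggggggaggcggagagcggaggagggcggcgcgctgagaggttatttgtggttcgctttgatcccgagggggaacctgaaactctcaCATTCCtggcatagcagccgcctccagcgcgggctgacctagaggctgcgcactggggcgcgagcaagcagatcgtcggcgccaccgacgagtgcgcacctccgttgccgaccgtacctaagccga
Yap1 promoter, chr8:13451388-13451687, minus strand: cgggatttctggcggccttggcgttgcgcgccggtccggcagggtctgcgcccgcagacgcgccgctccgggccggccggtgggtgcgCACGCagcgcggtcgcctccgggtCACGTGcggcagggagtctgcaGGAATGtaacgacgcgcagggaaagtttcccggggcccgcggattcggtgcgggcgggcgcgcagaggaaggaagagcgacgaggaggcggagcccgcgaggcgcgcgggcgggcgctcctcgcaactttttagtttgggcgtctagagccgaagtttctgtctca

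The Ctgf promoter held 3 matches to the TEAD letters, starting 166, 101 and 92 bases before the start site. Among all 33469 promoters of this length, 14.2% held at least 1 match and 0.0956% held 3 or more. Cyr61 and Amotl2 each held 1 match, at 113 and 76 bases before the start site, both on the opposite strand. Yap1 held 1 match to the TEAD letters at 116 bases and 1 E-box at 138 bases before the start site, and 6.42% of all promoters held an E-box. The letters bound by AHR occurred once in Yap1, Cyr61 and Wwtr1, against 29.7% of all promoters with a match. The Axl window held none of these letters. A match describes these letters in these windows and is not evidence of binding.

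**Figure D1:**
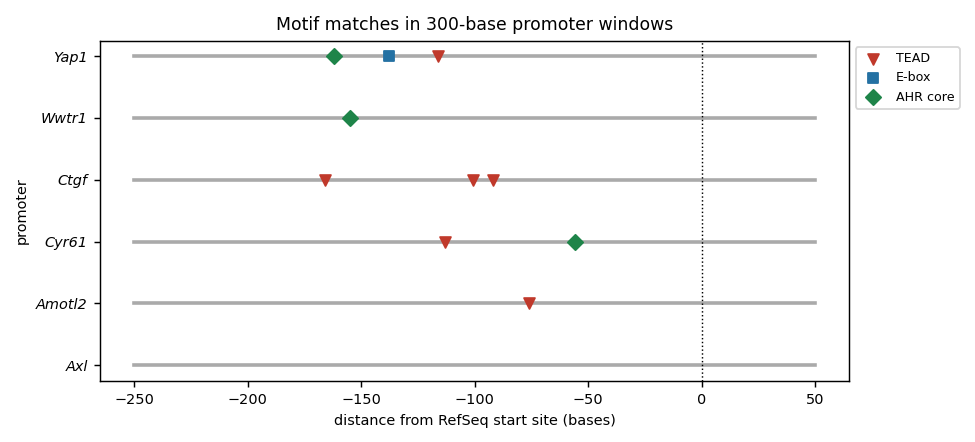
Positions of matches to the TEAD, E-box and AHR core letters in the promoter windows of 6 genes, with distance from the RefSeq start site in bases on the x axis and 1 gray line per promoter. Ctgf carries 3 TEAD matches, and Axl carries no match of any kind.

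Cells with MYC had lower levels of most of these genes. In the 6-library set, 8 of the 10 genes passed both cutoffs (a fold change of 1.5 or more, which is 0.585 on the log2 scale, and an adjusted p of 0.01 or less from limma, whose standard errors are given as SE), 1 higher and 7 lower with MYC. Across all genes, 26.8% passed in that comparison, 12.5% higher and 14.3% lower. In the 12-library set, 7 of the 10 genes passed, 1 higher and 6 lower, against 25.5% of all genes, 10.8% higher and 14.7% lower. The median log2FC of the 10 genes was -0.71 in the 6-library set and -0.89 in the 12-library set, where the median over all genes was 0.00 in both. The groups did not overlap for any of the 10 genes in either set, as was the case for 78.8% and 70.5% of all genes. With quantile normalization 5 genes passed in the 6-library set, 1 higher and 4 lower, against 13.6% higher and 12.8% lower over all genes. In the 12-library set 8 passed with it, 3 higher and 5 lower, against 13.6% higher and 12.6% lower.

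**Figure D2:**
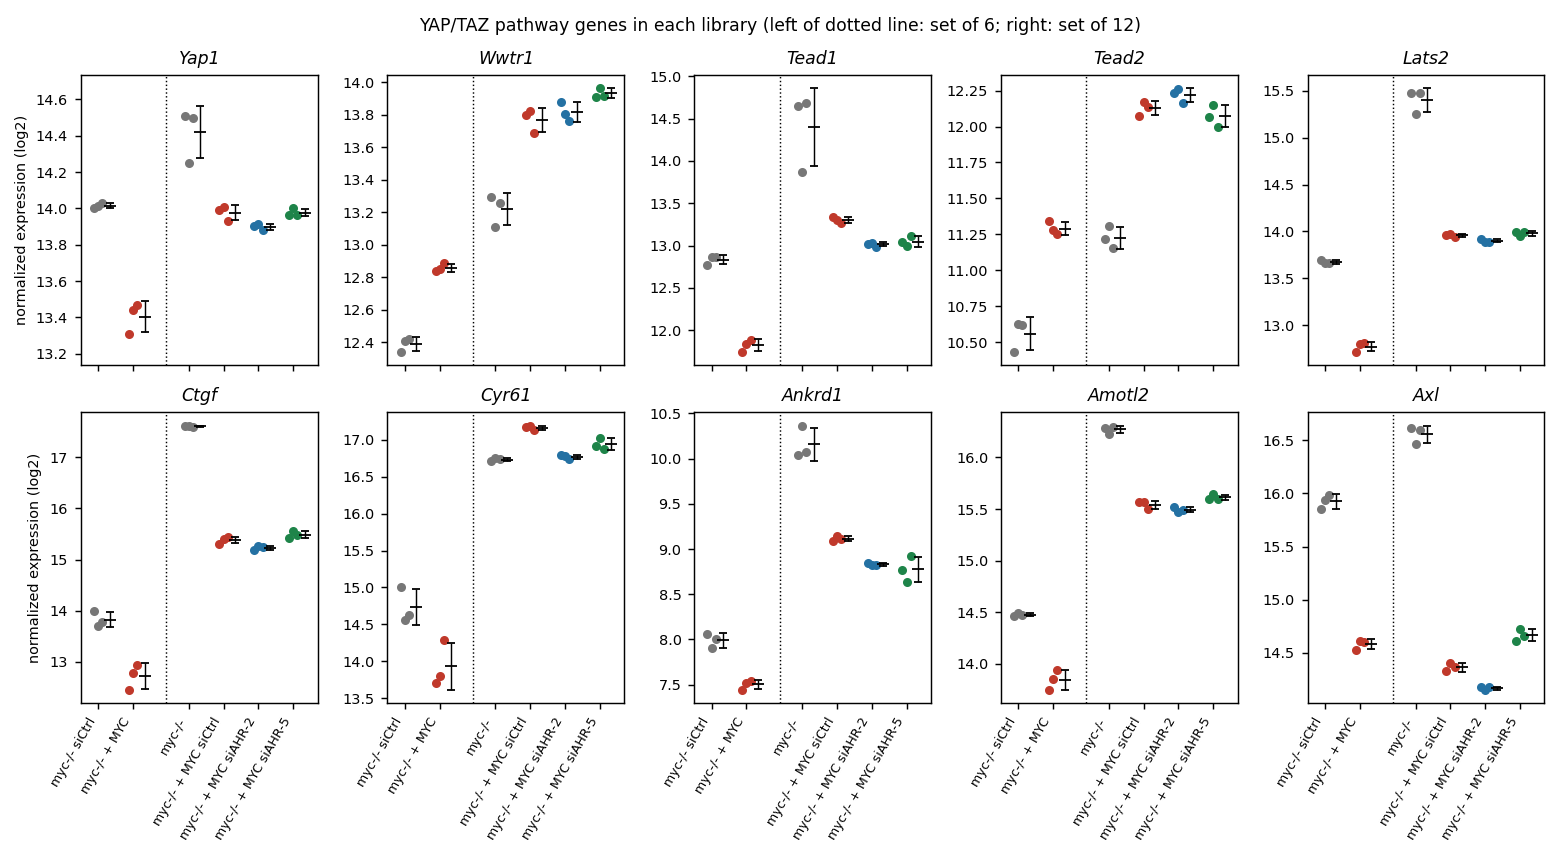
Normalized log2 expression of the 10 genes in each of the 18 libraries (points), with the mean and SD of each group of 3 beside them (bars). The dotted line separates the sets, which are on different scales. Within each set, the MYC-expressing libraries lie below the myc-/- libraries for Yap1, Tead1, Lats2, Ctgf, Ankrd1, Amotl2 and Axl and above them for Wwtr1 and Tead2.

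The co-activator genes differed in opposite directions: Yap1 fell in the 6-library set, and Wwtr1 was higher with MYC in both sets at a size below the fold cutoff. Yap1 was at 14.00, 14.01 and 14.03 in the myc-/- siCtrl libraries and at 13.31, 13.44 and 13.47 in the myc-/- + MYC libraries. Every library with MYC was lower, and the log2FC was -0.61 (SE 0.0401, adjusted p = 7.49e-08). In the 12-library set, Yap1 was at 14.51, 14.25 and 14.49 in myc-/- cells and at 13.99, 14.01 and 13.93 in myc-/- + MYC siCtrl cells. This log2FC of -0.44 had an adjusted p of 0.00267 and stayed below the fold cutoff. The Yap1 call in the 6-library set was close to that cutoff: the log2FC was -0.56 without replicate 1 of the myc-/- + MYC group and -0.44 after quantile normalization, both under it.

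Wwtr1, which encodes TAZ, was at 12.34, 12.41 and 12.42 in myc-/- siCtrl cells and at 12.84, 12.85 and 12.89 in myc-/- + MYC cells. Its level was higher in every library with MYC, with a log2FC of 0.47 (adjusted p = 2.02e-07), below the fold cutoff. The 12-library set had it at 13.29, 13.11 and 13.26 in myc-/- cells and at 13.80, 13.82 and 13.69 in myc-/- + MYC siCtrl cells. The log2FC was 0.55 (adjusted p = 0.000440), again below the cutoff. It was 0.59 after median centring, 0.61 after quantile normalization, and 0.59 without replicate 1 of the myc-/- group or without replicate 3 of the myc-/- + MYC siCtrl group, all past it. The log2 difference between Yap1 and Wwtr1 within a library, whose size is not comparable because gene length is not accounted for, lay between 1.61 and 1.66 in myc-/- siCtrl cells and between 0.47 and 0.59 in myc-/- + MYC cells. It lay between 1.14 and 1.24 in myc-/- cells and between 0.18 and 0.24 in myc-/- + MYC siCtrl cells. The ranges did not overlap in either set, which follows from Yap1 being lower and Wwtr1 higher in every library with MYC.

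Tead1 fell and Tead2 rose with MYC in both sets. Tead1 was at 12.77, 12.87 and 12.86 in myc-/- siCtrl cells and at 11.74, 11.84 and 11.89 in myc-/- + MYC cells. It was lower in all 3 libraries with MYC and had a log2FC of -1.01 (SE 0.0442, adjusted p = 2.33e-09). Tead1 in the 12-library set was at 14.65, 13.87 and 14.68 in myc-/- cells and at 13.34, 13.31 and 13.27 in myc-/- + MYC siCtrl cells. Replicate 2 of the myc-/- group was the low value, and the log2FC of -1.10 had an SE of 0.224 (adjusted p = 0.00593). Without that library the log2FC was -1.36. The call of Tead1 in the 12-library set was lost without any 1 of the other 5 libraries, with adjusted p between 0.0210 and 0.0273 and log2FC between -1.11 and -0.96. With the replicate number as a block (adjusted p = 0.0124) or without a mean-variance trend in limma (adjusted p = 0.0102) this call was also lost, at the same log2FC of -1.10.

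Tead2 was at 10.43, 10.63 and 10.62 in myc-/- siCtrl cells and at 11.34, 11.28 and 11.25 in myc-/- + MYC cells. All libraries with MYC were higher, with a log2FC of 0.73 (SE 0.0578, adjusted p = 3.87e-07). It also rose in the 12-library set, from 11.22, 11.31 and 11.16 to 12.08, 12.17 and 12.14, a log2FC of 0.90 (SE 0.0517, adjusted p = 2.35e-05). Tead2 was the gene of the 10 that passed as higher with MYC in both sets. The log2 difference between Tead1 and Tead2 within a library lay between 2.24 and 2.34 in myc-/- siCtrl cells and between 0.40 and 0.63 in myc-/- + MYC cells. It lay between 2.56 and 3.53 in myc-/- cells and between 1.13 and 1.26 in myc-/- + MYC siCtrl cells, and the low end of the myc-/- range was replicate 2. Without that library the range began at 3.44.

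Lats2 and Amotl2, whose products restrain YAP and TAZ, fell with MYC in both sets. Lats2, the kinase gene that is also a YAP target, was at 13.69, 13.66 and 13.66 in myc-/- siCtrl cells and at 12.71, 12.79 and 12.81 in myc-/- + MYC cells, so that the log2FC was -0.90 (SE 0.0335, adjusted p = 6.25e-10). Lats2 in the 12-library set was at 15.48, 15.25 and 15.48 in myc-/- cells and at 13.96, 13.98 and 13.94 in myc-/- + MYC siCtrl cells, and it fell by 1.44 on the log2 scale (SE 0.0672, adjusted p = 1.04e-05). Amotl2 encodes an angiomotin-like protein that binds YAP and TAZ. It was at 14.46, 14.49 and 14.47 in myc-/- siCtrl cells and at 13.75, 13.85 and 13.94 in myc-/- + MYC cells, a log2FC of -0.63 (SE 0.0434, adjusted p = 1.21e-07). Amotl2 in the 12-library set was at 16.29, 16.23 and 16.30 in myc-/- cells and at 15.56, 15.56 and 15.50 in myc-/- + MYC siCtrl cells. This log2FC was -0.73 (SE 0.0338, adjusted p = 1.02e-05). Amotl2 lay close to the fold cutoff. It was -0.576 without replicate 1 of the myc-/- + MYC group, and after quantile normalization it was -0.41 in the 6-library set and -0.54 in the 12-library set, all under it.

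Ctgf and Axl fell with MYC in both sets, Cyr61 fell in the 6-library set and Ankrd1 fell in the 12-library set. Ctgf, whose promoter holds 3 TEAD matches, was at 13.99, 13.71 and 13.79 in myc-/- siCtrl cells and at 12.46, 12.79 and 12.95 in myc-/- + MYC cells, a log2FC of -1.10 (SE 0.107, adjusted p = 2.29e-06). Ctgf in the 12-library set fell from 17.61, 17.62 and 17.59 to 15.31, 15.40 and 15.44. This log2FC of -2.22 (SE 0.0397, adjusted p = 3.42e-07) was a 4.66-fold lower level. Cyr61 encodes the closest relative of CTGF among them, and its promoter holds 1 TEAD match. It was at 15.01, 14.55 and 14.63 in myc-/- siCtrl cells and at 13.70, 13.80 and 14.29 in myc-/- + MYC cells, a log2FC of -0.80 (SE 0.145, adjusted p = 0.000376). All libraries with MYC in the 12-library set were higher instead, at 17.18, 17.19 and 17.13 against 16.71, 16.75 and 16.74 in myc-/- cells. That log2FC of 0.43 (SE 0.0313, adjusted p = 6.36e-05) was below the fold cutoff, and after quantile normalization it was 0.61, past the cutoff. In the 6-library set, quantile normalization gave -0.582 for Cyr61, which was just under the cutoff.

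Ankrd1, which encodes a nuclear cofactor with ankyrin repeats, was at 8.064, 7.903 and 8.002 in myc-/- siCtrl cells and at 7.44, 7.52 and 7.55 in myc-/- + MYC cells. The log2FC of -0.49 had an adjusted p of 3.15e-05 and was below the fold cutoff. Ankrd1 in the 12-library set was at 10.04, 10.37 and 10.08 in myc-/- cells and at 9.09, 9.15 and 9.11 in myc-/- + MYC siCtrl cells. It fell by 1.04 on the log2 scale (SE 0.0965, adjusted p = 0.000181). Axl encodes a receptor tyrosine kinase that binds GAS6. It was at 15.85, 15.94 and 15.99 in myc-/- siCtrl cells and at 14.53, 14.61 and 14.60 in myc-/- + MYC cells. The log2FC of -1.35 (SE 0.0386, adjusted p = 7.49e-11) was the largest change of the 10 genes in the 6-library set. Axl in the 12-library set fell from 16.61, 16.47 and 16.60 to 14.32, 14.41 and 14.36, a log2FC of -2.20 (SE 0.0481, adjusted p = 6.66e-07) and a 4.58-fold lower level. The changes of Ctgf and Axl in that set differed by less than their SE, and their order turned with quantile normalization (-2.04 and -2.07) and without replicate 2 of the myc-/- group (-2.21 and -2.24).

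**Figure D3:**
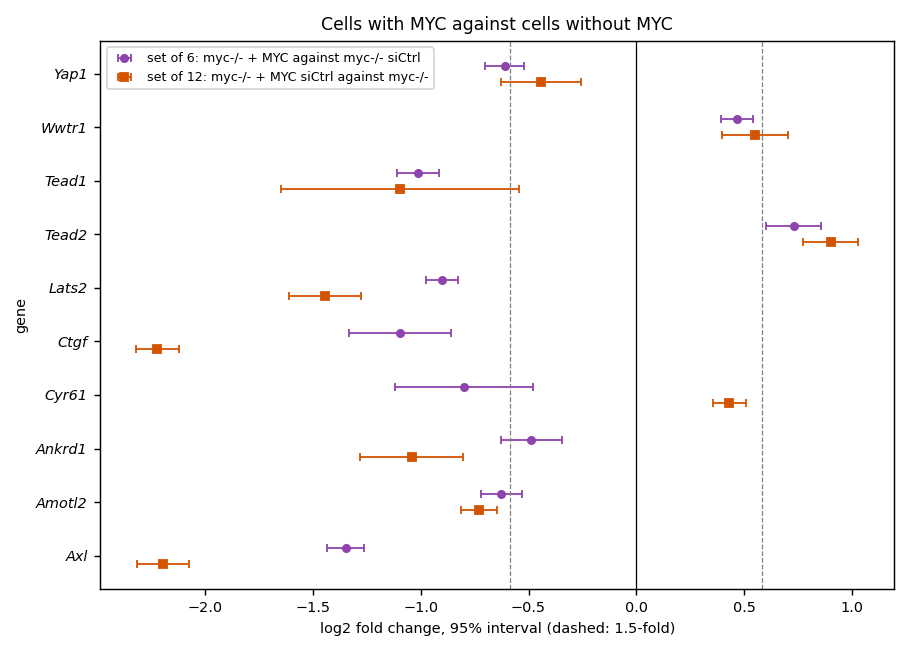
Log2 fold changes of the 10 genes with 95% intervals from limma, for cells with MYC against cells without MYC in the 6-library set (circles) and in the 12-library set (squares). Dashed lines mark a 1.5-fold change. Only Cyr61 lies on opposite sides of 0, at -0.80 in the 6-library set and 0.43 in the 12-library set.

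The effects in the sets were compared in one fit of 12 libraries, in which no library was shared. The difference (12-library minus 6-library set) passed the cutoffs for 3 of the 10 genes, 1 higher and 2 lower, against 16.5% of all genes, 6.79% higher and 9.67% lower (41.3% of those called were higher, and 52.6% after median centring). It was 1.23 for Cyr61 (95% interval 0.85 to 1.62, adjusted p = 3.59e-05), -1.12 for Ctgf (-1.41 to -0.83, adjusted p = 5.47e-06) and -0.85 for Axl (-0.99 to -0.71, adjusted p = 5.60e-08). Cyr61 thus differed in direction, and Ctgf and Axl in size. At an FDR below 5% alone, 5 of the 10 differed, against 54.9% of all genes. Lats2 (-0.54) and Ankrd1 (-0.56) had adjusted p values of 2.15e-05 and 0.000833 with differences just below the fold cutoff. Lats2 reached -0.62 without replicate 2 of the myc-/- group. Ankrd1 lay between -0.62 and -0.59, past the cutoff, without replicate 1 or 3 of the myc-/- group, replicate 1 of the myc-/- + MYC group or replicate 1 of the myc-/- siCtrl group. For Yap1, Wwtr1, Tead1, Tead2 and Amotl2 the interval of the difference included 0, from -0.53 to 0.36 for Tead1, the widest, and from -0.24 to 0.03 for Amotl2, the narrowest.

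Further genes of the pathway were taken from lists, which were also chosen with earlier results of these data known. Their shares beside those of all genes are a description. Of 16 other YAP and TAZ target genes, 11 were in the table. In the 6-library set, 8 of the 11 passed, 1 higher and 7 lower with MYC, with a median log2FC of -0.73 (72.7% of the list, against 26.8% of all genes). The genes named by size were Crim1 (-1.05), Ptpn14 (-0.999), Tgfb2 (-0.99) and Asap1 (-0.79). CRIM1 is a transmembrane protein that binds BMPs, PTPN14 is a phosphatase that restrains YAP, and Tgfb2 encodes a TGF-beta ligand. Gls2, the liver-type glutaminase gene, rose by 0.72. In the 12-library set, 4 of the 11 passed, 0 higher and 4 lower, with a median log2FC of -0.46 (36.4% of the list, against 25.5% of all genes). These were F3, which encodes tissue factor (-2.85), Tgfb2 (-1.87), Crim1 (-1.34) and Myof (-1.06). F3 fell more in the 12-library set than in the 6-library set, where its log2FC was -0.78, and the difference was -2.07 (adjusted p = 3.64e-12). Ptpn14 had a log2FC of -0.18 in the 12-library set (adjusted p = 0.399), and its difference between the sets was 0.82 (adjusted p = 0.000936).

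Of 26 other Hippo pathway genes, 20 were in the table. In the 6-library set, 3 of the 20 passed, all lower with MYC, with a median log2FC of -0.14. They were Map4k4 (-1.16), a kinase that can act on LATS, Tead3 (-0.86) and the protocadherin gene Fat1 (-0.59). In the 12-library set, 2 of the 20 passed, Tead3 (-1.41) and Map4k4 (-0.91), both lower, with a median of -0.34. Both shares, 15% and 10%, were below the 26.8% and 25.5% of all genes. Fat1 in the 12-library set had a log2FC of -0.85 with an adjusted p of 0.0120. Lats1, the second LATS kinase gene, had log2FC of -0.12 in the 6-library set and 0.27 in the 12-library set, and neither passed. Tead3 therefore fell in both sets, as Tead1 did, while Tead2 rose.

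**Figure D4:**
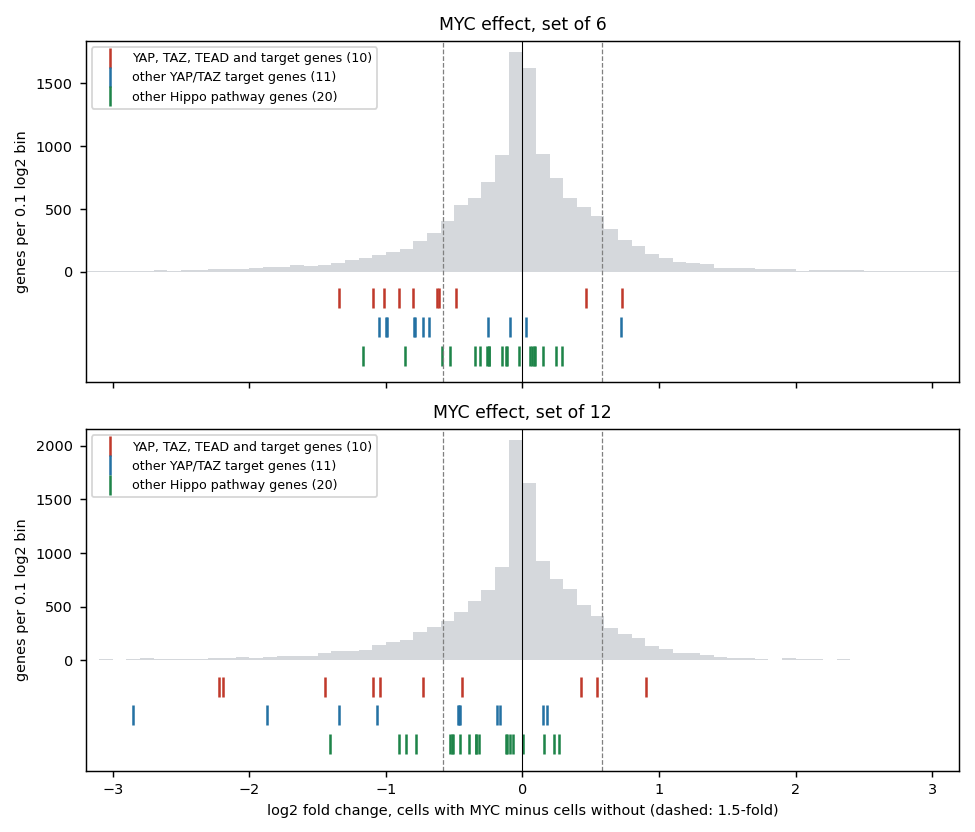
Histogram of log2 fold changes of all 13188 genes (gray, genes per bin) for cells with MYC against cells without, in the 6-library set (top) and the 12-library set (bottom). Ticks below mark the 10 genes, 11 other YAP/TAZ target genes and 20 other Hippo pathway genes, and dashed lines mark a 1.5-fold change. The target genes lie mostly to the left of 0 and most upstream genes lie between the dashed lines.

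Silencing of AHR was compared with siCtrl in MYC-expressing cells, within the 12-library set. These comparisons share the 3 myc-/- + MYC siCtrl libraries with each other and with the MYC effect in that set. By limma, siAHR-2 gave 0 of the 10 genes past both cutoffs, against 0.47% of all genes, although 7 had a p under 0.05 before adjustment, as did 40.4% of all genes. With siAHR-5, 0 of the 10 passed, against 2.33% of all genes, and 6 had a p under 0.05 before adjustment, as did 47.8% of all genes. With siAHR-2, Cyr61 was at 16.79, 16.78 and 16.74 against 17.18, 17.19 and 17.13 with siCtrl. The groups did not overlap, and the log2FC was -0.39 (95% interval -0.45 to -0.34, adjusted p = 0.000558). With siAHR-5, Cyr61 was at 16.91, 17.03 and 16.87, a log2FC of -0.23 (95% interval -0.34 to -0.11, adjusted p = 0.0120). With quantile normalization this value was -0.065 (adjusted p = 0.272).

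With the fold criterion dropped and an FDR below 5%, 6 of the 10 genes differed with siAHR-2, 0 higher and 6 lower, against 29.3% of all genes (13.7% higher and 15.5% lower). Beside them, the fibroblast markers Vim (19.08 to 19.10 against 19.42 to 19.48 with siCtrl) and Col1a1 (14.91 to 14.94 against 15.05 to 15.08) were lower with siAHR-2 without passing the fold cutoff, and the log2 of the summed level of the 7 fibroblast markers was 19.34 to 19.35 against 19.62 to 19.68. The part of these markers in the result was not tested. For siAHR-5 the number was 5, 2 higher and 3 lower, against 39.2% of all genes (21.1% higher and 18.1% lower). The siAHR-2 and siCtrl libraries did not overlap for 7 of the 10 genes, and the siAHR-5 and siCtrl libraries for 6, as was so for 43.3% and 50.5% of all genes. Ankrd1 was at 8.85, 8.83 and 8.82 with siAHR-2 and at 8.77, 8.64 and 8.92 with siAHR-5, against 9.09, 9.15 and 9.11 with siCtrl. Neither siAHR group overlapped with siCtrl. The log2FC of Ankrd1 was -0.28 (adjusted p = 0.00385) with siAHR-2 and -0.34 (adjusted p = 0.0195) with siAHR-5. Tead1 was at 13.02, 13.04 and 12.99 with siAHR-2 and at 13.04, 12.99 and 13.11 with siAHR-5, against 13.34, 13.31 and 13.27. Its log2FC was -0.29 (adjusted p = 0.00143) and -0.26 (adjusted p = 0.00425), and neither siAHR group overlapped with siCtrl. With all 12 libraries in one fit the adjusted p of Tead1 was 0.234 and 0.243.

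Not all of these genes stayed past the FDR under the alternatives. With siAHR-2, Cyr61, Ankrd1 and Axl did so in each alternative run. Lats2 did not when all 12 libraries were fitted together, with quantile normalization, with genes of low mean left out, with the replicate block, or without any 1 of the libraries other than siCtrl replicate 3. Ctgf did not with quantile normalization or without any 1 of the libraries other than siCtrl replicate 1. With siAHR-5, Axl stayed past the FDR in each alternative run. Wwtr1 did not with median centring or without siCtrl replicate 1 or any 1 siAHR-5 library. Ankrd1 did not without any 1 siCtrl library or siAHR-5 replicate 1, with adjusted p from 0.0519 to 0.0667.

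Axl was on opposite sides of siCtrl with the siRNAs. It was at 14.18, 14.15 and 14.17 with siAHR-2, at 14.32, 14.41 and 14.36 with siCtrl and at 14.61, 14.72 and 14.66 with siAHR-5. The log2FC was -0.20 (adjusted p = 0.00345) with siAHR-2 and 0.30 (adjusted p = 0.00229) with siAHR-5. Among the fibroblast markers, Thy1 also rose with siAHR-5 (12.12 to 12.18 against 11.34 to 11.44 with siCtrl), and Pdgfrb lay at 12.27 to 12.40 against 11.68 to 11.83 and Col1a1 at 15.23 to 15.32 against 15.05 to 15.08 without passing. Vim, of the same list, lay lower, at 18.95 to 19.01 against 19.42 to 19.48, without passing, and the log2 of the summed level of the 7 fibroblast markers was 19.26 to 19.32 against 19.62 to 19.68. The leukocyte marker Cd14 lay at 10.51 to 10.69 against 9.91 to 10.18, and the endothelial markers Cdh5 and Pecam1 at 4.87 to 4.97 against 4.73 to 4.78 and at 7.31 to 7.57 against 7.13 to 7.22, all higher with siAHR-5 without passing. Ctgf was at 15.19, 15.26 and 15.24 with siAHR-2 and at 15.42, 15.56 and 15.48 with siAHR-5, against 15.31, 15.40 and 15.44 with siCtrl. The siAHR-2 libraries lay below siCtrl, whereas the siAHR-5 range overlapped with it, with log2FC of -0.15 (adjusted p = 0.0346) and 0.10 (adjusted p = 0.150). The 95% intervals of Yap1 reached from -0.14 to -0.02 with siAHR-2 and from -0.07 to 0.07 with siAHR-5. Those of Lats2 reached from -0.10 to -0.02 and from -0.03 to 0.07. With siAHR-2 the adjusted p was 0.0679 for Yap1 and 0.0463 for Lats2, of which only the latter was past the FDR. Wwtr1 was at 13.91, 13.97 and 13.92 with siAHR-5 against 13.80, 13.82 and 13.69 with siCtrl, a log2FC of 0.16 (adjusted p = 0.0276), and its interval with siAHR-2 reached from -0.08 to 0.17. Every siAHR-5 library was above siCtrl for Wwtr1. The log2FC of Tead2 was 0.09 with siAHR-2 and -0.06 with siAHR-5, and that of Amotl2 was -0.05 and 0.07, none past the FDR. For all 10 genes both intervals lay inside the 1.5-fold lines, the widest being that of Ankrd1 with siAHR-5, from -0.54 to -0.15.

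The siRNAs were also compared with each other, without the shared controls. Again 0 of the 10 genes passed both cutoffs, against 2.18% of all genes, and 8 had an unadjusted p under 0.05, as did 46.8% of all genes. At the FDR below 5% alone, 7 differed, 7 higher and 0 lower with siAHR-5, against 39.1% of all genes (22.1% higher and 17% lower). They were Yap1, Wwtr1, Lats2, Ctgf, Cyr61, Amotl2 and Axl, of which Ctgf, Amotl2 and Axl stayed past the FDR in each alternative run. Yap1 was lost without siAHR-2 replicate 1 or 3, Cyr61 without any 1 siAHR-2 library or siAHR-5 replicate 1, Lats2 without siAHR-2 replicate 2 or 3 or siAHR-5 replicate 1 or 3, and Wwtr1 without any 1 library other than siAHR-2 replicate 1. Yap1, Lats2 and Wwtr1 were also lost when all 12 libraries were fitted together and with median centring, Yap1 and Wwtr1 with quantile normalization, and Wwtr1 without the trend and with the replicate block. In the same comparison Thy1, Pdgfrb and the leukocyte marker Cd14 (10.51 to 10.69 against 9.92 to 10.13) passed both cutoffs as higher with siAHR-5. These were 2 of 7 fibroblast, 0 of 4 epithelial, 0 of 4 endothelial and 1 of 4 leukocyte markers. Of the 7 fibroblast markers, 3 were higher in every siAHR-5 library and 1 was lower. The lower marker was Vim, at 18.95 to 19.01 against 19.08 to 19.10, without passing. The log2 of the summed level of the 7 was 19.26 to 19.32 against 19.34 to 19.35. The part of these markers in the results was not tested. The siRNA groups did not overlap for 8 of the 10 genes and for 49.5% of all genes. Axl differed most, with a log2FC of 0.50 (95% interval 0.42 to 0.57, adjusted p = 0.000262), followed by Ctgf with 0.26 (0.16 to 0.35, adjusted p = 0.00473). Among the other Hippo pathway genes, 1 of 20 passed with siAHR-5 against siCtrl and 1 of 20 against siAHR-2, which is 5% beside the 2.33% and 2.18% of all genes, and 0 of 20 with siAHR-2. It was Mob1b in both, which encodes an activator of LATS kinases. It lay at 11.68 to 11.90 with siAHR-5, at 12.54 to 12.60 with siAHR-2 and at 12.46 to 12.64 with siCtrl. Mob1b fell by 0.74 with siAHR-5 against siCtrl (adjusted p = 0.00121) and had a log2FC of 0.02 with siAHR-2. Of the 11 other target genes, 0 passed with siAHR-2 or siAHR-5, where 4 and 2 had an unadjusted p under 0.05, against the 40.4% and 47.8% of all genes above.

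**Figure D5:**
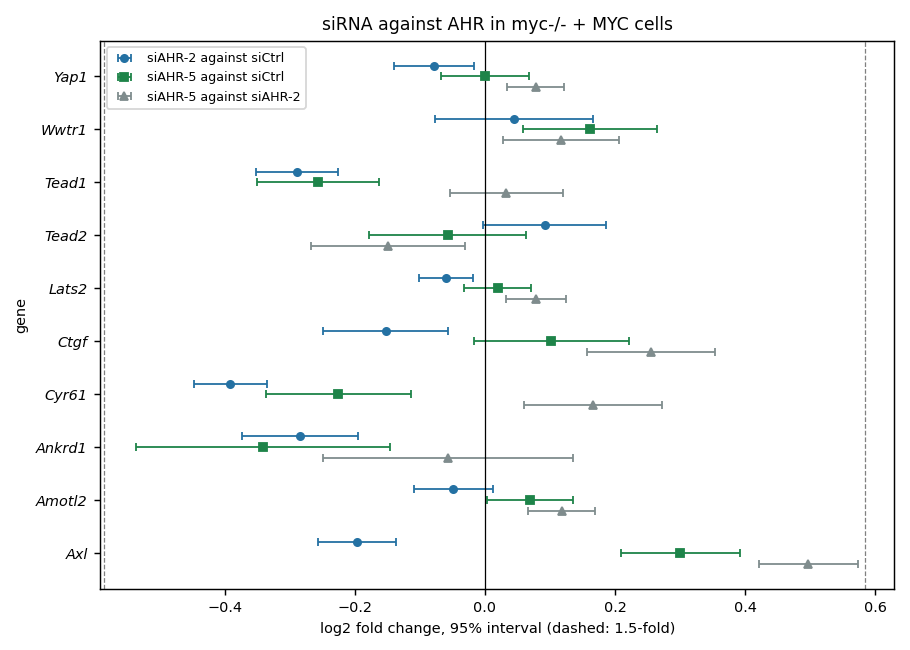
Log2 fold changes of the 10 genes with 95% intervals from limma in MYC-expressing cells, for siAHR-2 against siCtrl (circles), siAHR-5 against siCtrl (squares) and siAHR-5 against siAHR-2 (triangles). Dashed lines mark a 1.5-fold change, and all intervals lie between them. Cyr61, Ankrd1 and Tead1 lie left of 0 against siCtrl with either siRNA, while Axl lies at -0.20 with siAHR-2 and 0.30 with siAHR-5.

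The patterns of the 10 genes over the 12 libraries of the 12-library set were set side by side as a description. These libraries belong to 4 groups, so the correlations largely follow the group means. Amotl2 and Axl were most like each other (Pearson r = 0.997), Ctgf was most like Axl (0.994) and Lats2 most like Ctgf (0.993). Yap1 and Tead1 were most like each other (0.981), and so were Wwtr1 and Tead2 (0.919). Cyr61 stood apart, with its highest correlation, to Tead2, at 0.514. In the whole table, the genes most like Ctgf were P4ha2 (0.999), Col16a1 (0.999) and Peli3 (0.999). P4ha2 encodes a subunit of collagen prolyl 4-hydroxylase and Col16a1 a collagen chain. The genes most like Cyr61 were Abcg5 (0.972), Pfkl (0.957) and Psma5 (0.956), and those most like Ankrd1 were Ube2f (0.994), Slmo2 (0.993) and Psmd13 (0.992).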

How the data were processed

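RNA-seq was performed by the authors on 18 libraries of HO15.19 rat fibroblasts. According to the paper's methods and the processing notes, reads were checked with the NGS-QC-Toolkit and aligned to rn6 with HISAT2 2.1.0, genes with few reads were removed, and the rest was normalized with DESeq2. The authors deposited log2 values for 13188 genes, without pooling replicates. The read counter, the annotation and the log transformation are not given in the sources used here. Although the table is named for log CPM, back-transformed library totals differed between libraries and far exceeded the fixed total of CPM. They give no counts, and depth is unknown. Columns were matched to samples by the description in the labels, and 0 value columns had no sample.

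The deposited values were tested with limma 3.58.1 (R 4.3.3, lmFit, then eBayes with trend), each fit holding only the groups compared, and Benjamini-Hochberg adjustment over all 13188 genes. A gene passed at a fold change of 1.5 or more and an adjusted p of 0.01 or less. Alternatives comprised an FDR below 5% with no fold criterion, fitting all 12 libraries together, omitting the trend, scaling by quantiles or by medians, keeping genes with a mean of 6 or more, adding a pseudocount of 1, blocking on replicate number, and dropping single libraries. The 10 genes and the gene lists were chosen with earlier results of these data known. From each list, up to 4 genes per direction past the cutoffs were named, by size, with other genes named for comparison. Promoters are from RefSeq (GRCr8); all 10 symbols matched a gene there, Ctgf and Cyr61 as synonyms of Ccn2 and Ccn1. Plots used matplotlib 3.10.9 (Python 3.11.15).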

Additional observations from a re-analysis of the deposited data

Results flagged for a closer look

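The MYC effect differed between the sets for 3 of the 10 genes, by a test of the difference itself (limma, 12 libraries in 4 groups), as it did for 16.5% of all genes. For Cyr61 the difference was 1.23 on the log2 scale (adjusted p = 3.59e-05), with all 3 libraries with MYC lower than all myc-/- siCtrl libraries in the 6-library set and all 3 higher than all myc-/- libraries in the 12-library set. For Ctgf it was -1.12 (adjusted p = 5.47e-06) and for Axl -0.85 (adjusted p = 5.60e-08), with all libraries with MYC lower in both sets. All 3 differences passed the cutoffs under each alternative and without each library in turn. The sets also differ in scale and in which group was transfected, and the part of these in the differences cannot be told apart from the groups.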

How the results depend on the processing

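The number of genes past the cutoffs in the 6-library set was 8 and became 5 with quantile normalization, where Yap1, Cyr61 and Amotl2 had log2FC of -0.44, -0.58 and -0.41; without each library in turn it lay between 6 and 8. In the 12-library set it was 7 and lay between 6 and 8 under the alternatives that kept the fold cutoff, and between 6 and 7 without each library in turn. With the FDR criterion alone (below 5%) it was 6 for siAHR-2, 5 for siAHR-5, 7 for siAHR-5 against siAHR-2 and 5 for the difference of the MYC effects, in place of 0, 0, 0 and 3. Without each library in turn, this FDR count lay between 4 and 6 for siAHR-2, 3 and 4 for siAHR-5, and 3 and 7 between the siRNAs. It rose to 8 for siAHR-2 with median centring (6 of them in the main count). For siAHR-5 it rose to 6 with quantile normalization (4 of them) or a mean of 6 or more (5 of them). Between the siRNAs it rose to 8 with a mean of 6 or more (7 of them). The direction changed for values near 0: Amotl2 with siAHR-2 was 0.011 after quantile normalization, Yap1 and Lats2 with siAHR-5 were -0.059 and -0.040 after median centring, and Yap1 with siAHR-5 lay between -0.023 and 0.017 without each library. Ankrd1 in siAHR-5 against siAHR-2 lay between -0.13 and 0.014 without each library, above 0 without replicate 2 of siAHR-5. The difference of the MYC effects for Tead1 lay between -0.35 and 0.056, above 0 without replicate 1 or replicate 3 of the myc-/- group. Of 880 values of single genes under an alternative, 824 kept their direction and their side of the cutoffs, and 8 changed direction. The cause of these changes was not tested. Runs that left the log2FC as it was, such as omitting the trend or blocking on replicate number, could not change a direction. In the siAHR comparisons 0 of the 10 genes passed in the main fit, so a kept side there means staying short of the cutoffs. With the replicate number as a block (replicate block), 8 genes passed in the 6-library set and 6 in the 12-library set, where Tead1 had an adjusted p of 0.0124. The block gave 0, 0 and 0 genes for the siAHR comparisons and 3 for the difference. Over all genes, the block left 0 of 62 calls for siAHR-2, and the FDR criterion alone raised the calls from 3538 to 10051 and from 3361 to 8538 for MYC in the 6-library and 12-library sets, from 62 to 3860 for siAHR-2, from 307 to 5169 for siAHR-5, from 287 to 5151 between the siRNAs and from 2171 to 7235 for the difference. Same-numbered libraries did not deviate together throughout, with correlations of deviations from -0.256 to 0.242 for the 12-library set and from -0.073 to 0.00824 for the 6-library set, so the block rests on the number alone. Without a mean-variance trend, Tead1 in the 12-library set had an adjusted p of 0.0102. The depth of the libraries is unknown, so its limit on these values cannot be given.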
